A study of Homo sapiens with 72 samples.

Results

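The genes described here are 10 melanoma lineage and dedifferentiation genes, taken as the rows of the count table that carry their symbols, and so 10 of 44659 rows. They were 4 transcription factors of the melanocyte lineage (MITF, SOX10, SOX9 and TFAP2A), 4 pigment genes (PMEL, MLANA, TYR and DCT) and 2 receptors that mark dedifferentiated melanoma cells (AXL and NGFR). In GRCh38 (RefSeq) MITF lies at chr3:69739464-69968332, SOX10 at chr22:37972312-37984555, SOX9 at chr17:72121020-72126416, TFAP2A at chr6:10396677-10419659 and PMEL at chr12:55954105-55966709. MLANA lies at chr9:5890889-5910606, TYR at chr11:89177875-89295759, DCT at chr13:94436811-94549406, AXL at chr19:41219223-41261766 and NGFR at chr17:49495293-49515008. All 10 rows were found, and 8 passed the filter on low counts in every test across genes. MLANA and TYR were too low to be tested for any change at 0 h.

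Melanocytes arise from the neural crest, and their identity is held by a small set of transcription factors. SOX10, with other factors, activates MITF, and MITF in turn activates genes that build melanosomes and melanin, such as PMEL, MLANA, TYR and DCT, many of which carry the motif TCATGTG in their promoter. Melanoma cells can leave this state: dedifferentiated cells typically have little MITF and pigment gene RNA and more AXL, NGFR or SOX9, and such states are known for tolerance to inhibitors of the MAPK pathway.

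The cells were A375, an established human melanoma line with a BRAF mutation, and the RNA was cytoplasmic RNA read by QuantSeq, which makes 1 tag near the 3′ end of each polyadenylated transcript. In the first experiment, cells received a pool of 2 siRNAs against CTU2 (siCTU2), a subunit of the enzyme that adds a thiol group to the wobble uridine of some tRNAs, or a control siRNA against firefly luciferase (siGL2), and the inhibitors were added 42 h after transfection. In the second, cells were moved for 18 h to medium without glutamine (mQ) or to medium with glutamine (pQ). All 72 libraries, the 0 h ones included, came from cells given triptolide at 25 µM, which blocks transcription: the T arm got triptolide alone, and the TCHX arm got triptolide with cycloheximide at 100 µg/ml, which blocks translation. Cells were harvested at once (0 h) or after 3 h and 5 h, which gave 24 groups of 3 replicates. The labels do not say whether replicates were separate cultures, so p-values measure the spread between these libraries, which may be technical. One line was used, and in bulk RNA fewer cells with a transcript and less of it per cell cannot be told apart.

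Libraries held 5987692 to 15534331 counts, and the 10 genes together took 0.0247% to 0.154% of them. CTU2 was at 1.01 to 2.95 CPM (counts scaled to a fixed library total) in the 6 siCTU2 libraries at 0 h and at 21.1 to 29.9 CPM in the 6 siGL2 libraries. Among the replicate 3 libraries, 3 stood apart, with 19896 to 20364 genes detected against 15507 to 17495 in the other 69: mQ T at 5 h, pQ TCHX at 0 h, and the library labelled siCTU2 TCHX at 5 h, in which CTU2 was not low. They held 31.1 to 32.6 CPM of PTPRC and of CD3E, markers of blood cells, against at most 0.759 CPM elsewhere. Values without them are given beside the results they move. The part of these libraries' extra RNA in the levels of the 10 genes was not tested. Replicate 3 at 5 h also departed from replicates 1 and 2 in every condition and arm, also where no such library was present. Pearson's r of log2(CPM + 1) with replicate 3 at 5 h was 0.898 to 0.943. Between replicates 1 and 2 it was 0.97 to 0.991 over all groups. Every value that includes 5 h uses replicate 3, and the cause of this departure was not tested.

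Sequences of some members and of the siRNAs are shown first. In MITF and SOX9 the 3′ UTR (GENCODE annotation, GRCh38) held 1 copy each of TTATTTATT, the core of an AU-rich element, a motif class known for marking short-lived mRNAs. Each site is shown on its gene's strand with the motif in capitals, at chr3:69967703-69967729, 2464 bases after the stop codon of MITF, and at chr17:72125499-72125525, 1121 bases after that of SOX9.
MITF: ggggtggttTTATTTATTtcttttttg
SOX9: ttgctaaaaTTATTTATTttgtaagga
The motif was in the 3′ UTR of 8.5% of 19228 coding genes, and in no other member. The shorter pentamer ATTTA, which the longer motif contains, occurred 9 times in 1740 bases of the TFAP2A 3′ UTR, or 5.17 times per kb, 4.21 times per kb in MLANA, 3.94 in SOX9, 2.92 in MITF and 2.54 in TYR. SOX10 held it once in 1183 bases (0.845 per kb), DCT 1.62 times per kb, and AXL not once in 1862 bases, beside a median of 1.52 per kb over all coding genes. These matches are a description of the letters only.

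Among the promoters in the RefSeq table (GRCh38, the 250 bases before each start), 11 belonged to 6 members, and 2 of these, 1 each of TYR and DCT, held TCATGTG or its reverse complement CACATGA, the motif through which MITF is known to act on pigment genes. Over all 35116 promoters, 2.52% held it. They lie at chr11:89177625-89177874 on the plus strand for TYR, with the match starting 105 bases before the start site, and at chr13:94479683-94479932 on the minus strand for DCT, with matches 215 and 135 bases before it, and are shown because DCT had the highest level of the 4 pigment genes and TYR was almost absent (matches in capitals).
TYR: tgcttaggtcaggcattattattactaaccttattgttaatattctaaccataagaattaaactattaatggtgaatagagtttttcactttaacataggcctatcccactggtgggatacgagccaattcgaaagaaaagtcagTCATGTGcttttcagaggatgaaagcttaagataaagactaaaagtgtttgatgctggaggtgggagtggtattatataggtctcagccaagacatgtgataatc
DCT: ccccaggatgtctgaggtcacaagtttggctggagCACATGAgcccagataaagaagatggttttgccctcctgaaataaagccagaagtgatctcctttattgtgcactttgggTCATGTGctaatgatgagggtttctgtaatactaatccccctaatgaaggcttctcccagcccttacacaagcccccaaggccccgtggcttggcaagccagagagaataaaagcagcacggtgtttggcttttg
The 2 siRNAs of the CTU2 pool matched the CTU2 mRNA in exon 8 (chr16:88713389-88713407) and in exon 13 (chr16:88714907-88714925).
siCTU2#1: cuaucaagcucaugaccaa
siCTU2#2: gcgugaacaugaaggacuu

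At 0 h the 4 lineage factors and DCT were well expressed, and PMEL, MLANA and TYR were low. Levels are CPM without division by length, since QuantSeq counts 1 tag per transcript, and values of different genes are set side by side only roughly. Over the 24 libraries at 0 h, SOX9 had a median of 574 CPM (328 to 831), SOX10 308 CPM (205 to 424) and MITF 199 CPM (95 to 377), and these exceeded 98.2%, 95.8% and 94.3% of the 12475 genes with a mean of at least 1 CPM. DCT, which makes a late intermediate of eumelanin, followed with 59.5 CPM (17.5 to 111), then TFAP2A with 38 CPM (21.8 to 64.4), and AXL with 33.3 CPM (20.1 to 83.1). The ranges of DCT, TFAP2A and AXL overlapped, as did those of SOX9, SOX10 and MITF, and those of MITF and DCT. NGFR, a low-affinity receptor for neurotrophins, had 4.94 CPM (1.63 to 9.83), and PMEL, the fibril protein of the melanosome, 4.34 CPM (2.21 to 9.75, from 24 to 124 counts). MLANA and TYR, the melanosome antigen MART-1 and the enzyme that starts melanin synthesis, were close to the limit of detection. MLANA had 0 to 8 counts at 0 h, with 0 in 8 of 24 libraries, and TYR 0 to 13 counts, with 0 in 5 of 24. A count of 0 allows up to 3 counts, or 0.195 to 0.392 CPM in these libraries, as counting error only. Neither passed 16 counts in any of the 72 libraries, so no difference between conditions could be read for them.

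**Figure D1:**
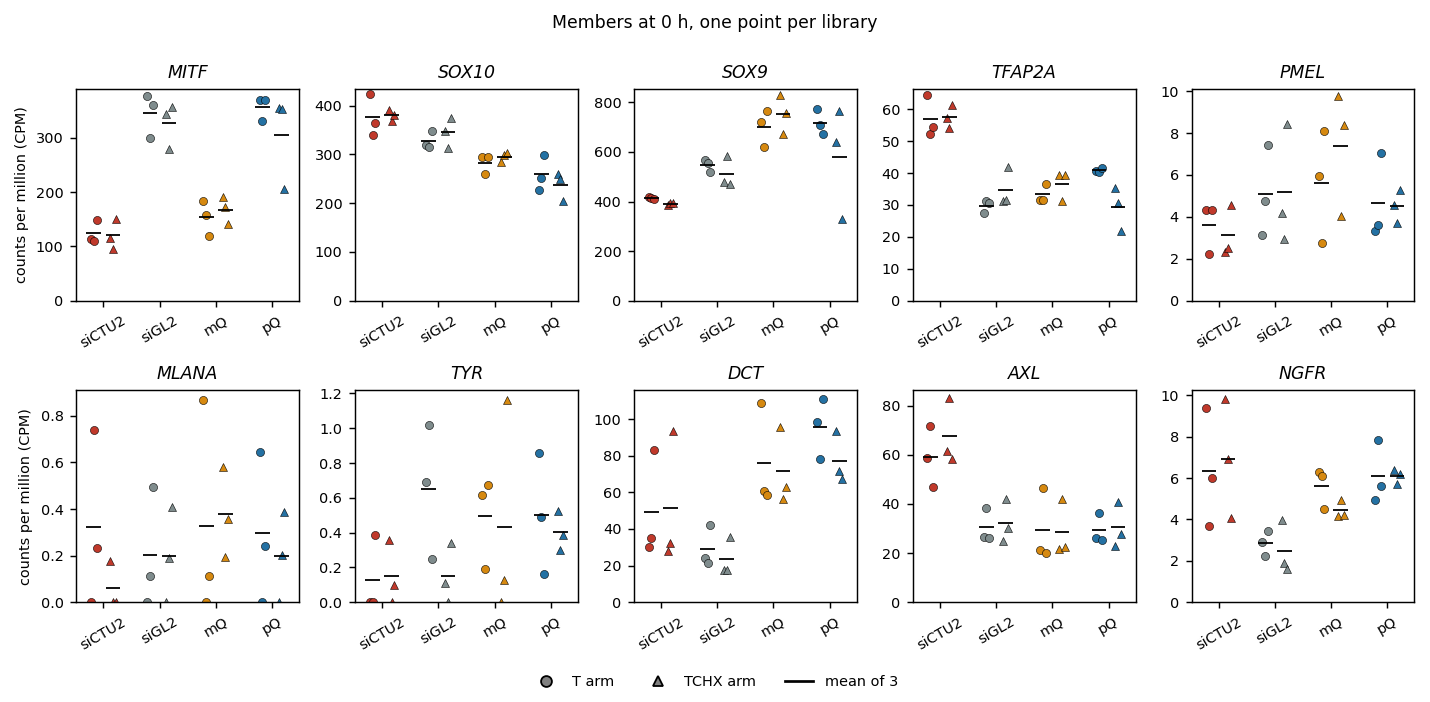
Level of each of the 10 genes at 0 h (y axis, CPM) in each library of the 4 conditions (x axis), with circles for the T arm, triangles for the TCHX arm and bars for the mean of 3 libraries. MITF lay between 95 and 151 CPM in the siCTU2 libraries and between 279 and 377 CPM in the siGL2 libraries, and MLANA and TYR lay at or near 0.

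The labelled cell type was checked with markers of several cell types. Of the 8 melanoma markers, SOX10, S100B (241 to 377 CPM) and MCAM (66.1 to 189 CPM) were present in all 24 libraries, as were MITF and DCT, while PMEL was low and MLANA and TYR were almost absent. The 4 fibroblast markers summed to 1.57 to 8.32 CPM, with PDGFRA at 1.29 to 5.68 CPM, COL1A1 at up to 2.57 CPM, DCN at up to 1.63 CPM and COL3A1 at 0 in all 24 libraries. The 3 endothelial markers summed to at most 2.02 CPM, nearly all VWF, with CDH5 at 0. The summed keratinocyte list, 99.7 to 297 CPM, was nearly all KRT10 (99.2 to 297 CPM), with KRT5 at 0. Blood markers summed to a median of 0.111 CPM, with a maximum of 64.9 CPM in the pQ TCHX library of replicate 3.

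The first comparison asked how loss of CTU2 changed these genes before the inhibitors had time to act. MITF fell to 0.36 times its siGL2 level, while TFAP2A, AXL and NGFR rose to 1.91, 1.93 and 2.2 times theirs. DCT was also called higher, and the T arm calls of DCT and NGFR were each lost without some single libraries. SOX9 fell slightly, and SOX10 and PMEL did not pass the test. In the T arm, 4 of the 8 members tested rose and 2 fell (adjusted p under 0.05, edgeR's quasi-likelihood test with Benjamini-Hochberg adjustment), where 36% of all 12292 genes tested passed the same threshold, 17.8% higher and 18.2% lower. With so many genes called, a call as such says little about a member, and sizes are therefore given.

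MITF, the master regulator of the melanocyte lineage, was at 114, 110 and 149 CPM in the 3 siCTU2 libraries of the T arm and at 377, 300 and 361 CPM in the siGL2 libraries (124 ± 21.6 against 346 ± 41, mean ± SD, n = 3). All siCTU2 libraries lay below all siGL2 libraries, and the same held in the TCHX arm, where the values were 116, 95 and 151 against 345, 279 and 358 CPM. In the TCHX arm 6 of the 8 members tested passed, the same 6, where 37.2% of 12507 genes did. The log2 fold change of MITF was -1.48 ± 0.108 (SE) in the T arm (adjusted p = 7.24e-09) and -1.43 ± 0.128 in the TCHX arm (adjusted p = 4.19e-08), in edgeR's quasi-likelihood test. Of all genes tested in the T arm, 2.26% had a lower value.

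SOX9, a relative of SOX10 that is often high in dedifferentiated cells, was at 420, 415 and 409 CPM with siCTU2 and at 567, 556 and 518 CPM with siGL2. The groups did not overlap in either arm, and the change was small, with a log2 fold change of -0.40 ± 0.0628 (adjusted p = 6.26e-05, edgeR) in the T arm and -0.37 ± 0.0808 in the TCHX arm (adjusted p = 0.00113). SOX10, which keeps the lineage and activates MITF, was at 424, 339 and 364 CPM against 319, 315 and 347 CPM. These values overlapped, and the log2 fold change of 0.20 ± 0.0804 missed the threshold (adjusted p = 0.0649, edgeR, 95% interval 0.039 to 0.354). Both arms fitted together called it (0.17, adjusted p = 0.0177), as did the T arm without siCTU2 replicate 2 (0.27, adjusted p = 0.0147) or without a filter on low counts (0.21, adjusted p = 0.0252). The fit of both arms counts the T and TCHX libraries of a replicate as separate samples, so its p-values may be too small. In the TCHX arm the log2 fold change of SOX10 was 0.15 ± 0.0788 (adjusted p = 0.159, edgeR). With the replicate number as a block, an alternative to the main fit, it was 0.15 with an adjusted p of 0.0428 (edgeR). Its call therefore depends on whether the replicate numbers pair the samples, which was not established. RNA of POLR2F, whose gene spans SOX10 on the opposite strand, could add to SOX10 counts if reads were counted without strand, which the sources used here do not give. The same holds for TFAP2A, which overlaps TFAP2A-AS1 and TFAP2A-AS2, for NGFR, which overlaps NGFR-AS1, and for MLANA, which overlaps BRD10.

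TFAP2A, a neural crest factor that works beside MITF at pigment gene enhancers, was at 64.4, 52.2 and 54.5 CPM with siCTU2 and at 27.4, 31.3 and 30.5 CPM with siGL2. Each siCTU2 library lay above each siGL2 library in both arms. Its log2 fold change was 0.94 ± 0.117 (adjusted p = 5.31e-06, edgeR) in the T arm and 0.72 ± 0.124 (adjusted p = 0.000115) in the TCHX arm.

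The pigment genes gave less certain values. DCT was at 30, 34.9 and 83.1 CPM with siCTU2 against 23.9, 21.6 and 42.1 CPM with siGL2, so the groups overlapped, and replicate 3 was the highest of both. Its log2 fold change of 0.77 ± 0.294 passed the threshold narrowly (adjusted p = 0.0486, edgeR), and without replicate 3 of siCTU2 it was 0.15 (adjusted p = 0.608). Leaving out siGL2 replicate 1 or 2 also took the call away in each arm (adjusted p from 0.0516 to 0.185). In the TCHX arm the values were 1.097 ± 0.332 (adjusted p = 0.0138) and, without that library, 0.35 (adjusted p = 0.261), and DESeq2 did not call DCT in either arm (adjusted p = 0.303 and 0.168). PMEL was at 4.32, 2.21 and 4.35 CPM against 3.12, 4.74 and 7.41 CPM, with a log2 fold change of -0.48 ± 0.364 (adjusted p = 0.324, 95% interval -1.196 to 0.23). PMEL had 24 to 60 counts a library in the T arm, and changes within that interval were not excluded. It did not pass in the TCHX arm either, but was called lower there without siGL2 replicate 2 (-1.043, adjusted p = 0.0368, edgeR).

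AXL, a receptor tyrosine kinase bound by GAS6, was at 58.7, 71.8 and 47 CPM with siCTU2 and at 26.7, 38.5 and 26.3 CPM with siGL2. All siCTU2 libraries lay above all siGL2 libraries in both arms, and the log2 fold change was 0.95 ± 0.159 (adjusted p = 0.000129, edgeR) in the T arm and 1.07 ± 0.158 (adjusted p = 2.32e-05) in the TCHX arm. NGFR was at 9.38, 3.69 and 5.99 CPM against 2.89, 2.26 and 3.46 CPM. Its groups did not overlap within an arm, though the spread among the siCTU2 libraries was wide, and the log2 fold change was 1.14 ± 0.356 (adjusted p = 0.0182). It was 1.53 ± 0.377 (adjusted p = 0.00332) in the TCHX arm. Without siCTU2 replicate 1 the T arm value of NGFR was 0.75 (adjusted p = 0.146), and without siGL2 replicate 2 it was 0.99 (adjusted p = 0.0696).

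**Figure D2:**
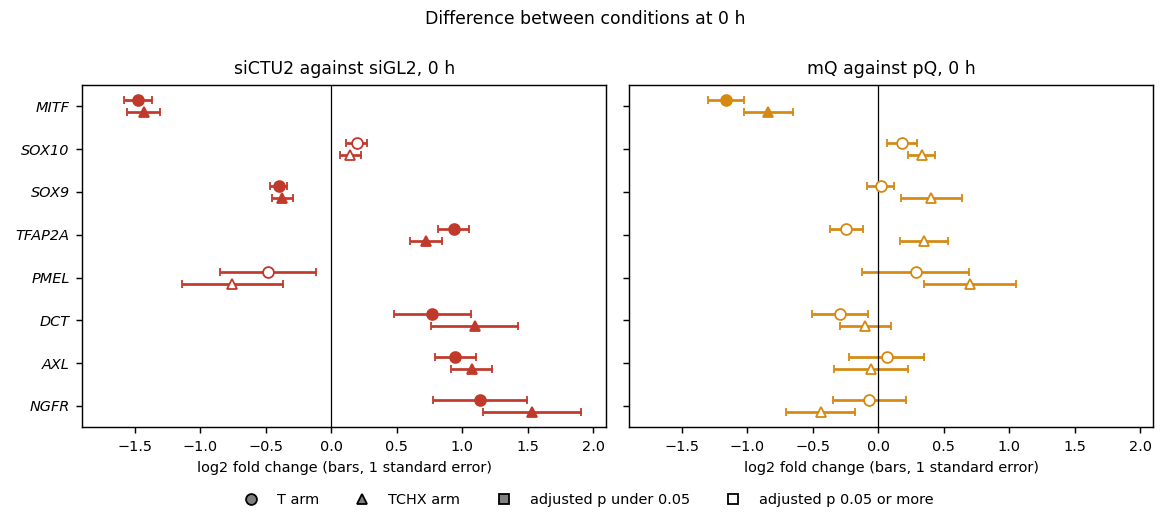
Log2 fold change of the 8 tested members at 0 h (x axis, bars of 1 standard error) for siCTU2 against siGL2 on the left and mQ against pQ on the right, with circles for the T arm, triangles for the TCHX arm and filled symbols for an adjusted p under 0.05. MITF lay at -1.48 and -1.43 on the left and at -1.16 and -0.84 on the right, while TFAP2A, DCT, AXL and NGFR were called higher in both arms on the left.

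Related genes were described with 4 lists, first in the T arm, where 17.8% of all genes tested were higher and 18.2% lower. Of 18 pigment and melanosome genes, 11 were tested with siCTU2, 6 fell and 0 rose, with a median log2 fold change of -0.71 beside 0.01 over all genes tested. Among those that fell were PPARGC1A (-2.23 ± 0.395), a coactivator of mitochondrial genes that MITF drives, the melanosome exchanger SLC24A5 (-1.75 ± 0.204) and the protease CAPN3 (-1.67 ± 0.206). Of 18 lineage and neural crest genes tested of 20, 5 rose and 4 fell (median 0.10): the neural crest factor FOXD3 (2.29 ± 0.308) and TFAP2C (0.83 ± 0.0866), a relative of TFAP2A, rose, while SNAI2 (-1.18 ± 0.217), SOX6 (-0.81 ± 0.0958) and the endothelin receptor EDNRB (-0.59 ± 0.106) fell. Of 22 dedifferentiation and invasion genes tested of 23, 12 rose and 3 fell (median 0.42). CAV1, the coat protein of caveolae, was at 543, 619 and 440 CPM against 98.4, 125 and 104 CPM (2.28 ± 0.111), CCN1 rose by 1.86 ± 0.189 and JUN by 1.61 ± 0.156, while ZEB1 (-0.77 ± 0.123) and TWIST1 (-0.67 ± 0.157), 2 inducers of mesenchymal traits, fell. In the TCHX arm TWIST1 did not pass (-0.32 ± 0.158, adjusted p = 0.123) and the other genes named here did. Of 11 ligands and relatives of AXL and NGFR, 4 were tested in each arm. In the T arm 0 passed, and in the TCHX arm 1 was lower.

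The second comparison asked what the lack of glutamine did to the same genes. MITF was the 1 member of 8 tested that passed the threshold in each arm, at 0.448 times its pQ level in the T arm, where 24.8% of all 12374 genes tested passed, and at 0.559 times in the TCHX arm, where 6.47% of 12521 did. In the T arm MITF was at 184, 158 and 120 CPM in mQ and at 370, 331 and 370 CPM in pQ (154 ± 32 against 357 ± 22.6, n = 3). All mQ libraries lay below all pQ libraries, and the log2 fold change was -1.16 ± 0.139 (adjusted p = 0.000235, edgeR). In the TCHX arm MITF was at 191, 172 and 141 CPM against 355, 354 and 206 CPM, where the 206 CPM library, replicate 3, is the one with blood cell transcripts. The groups again did not overlap, with a log2 fold change of -0.84 ± 0.189 (adjusted p = 0.03). Leaving out any library but that one took the TCHX call away (adjusted p between 0.0826 and 0.172, edgeR). Both arms fitted together without it gave -1.11 (adjusted p = 2.05e-07), a fit that counts the arms of a replicate as separate samples.

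The other members changed less or could not be told from their spread. SOX10 was at 295, 259 and 295 CPM in mQ against 226, 251 and 299 CPM in pQ in the T arm, with a log2 fold change of 0.18 ± 0.118 (adjusted p = 0.284). In the TCHX arm it was at 285, 298 and 302 against 259, 250 and 205 CPM and did not overlap (0.33 ± 0.103, adjusted p = 0.084). Both arms together without the doubted library gave 0.21 (adjusted p = 0.041, edgeR), again with the arms of a replicate counted as separate samples. SOX9 was at 720, 621 and 765 CPM against 773, 709 and 673 CPM in the T arm (0.02 ± 0.103, 95% interval -0.181 to 0.222). TFAP2A was at 31.6, 31.7 and 36.6 CPM against 40.7, 40.4 and 41.7 CPM in the T arm, without overlap, but its log2 fold change of -0.24 ± 0.127 did not pass (adjusted p = 0.181), and it was 0.35 ± 0.183 in the TCHX arm. DCT was at 109, 60.5 and 58.4 against 98.4, 78.1 and 111 CPM (-0.29 ± 0.212, adjusted p = 0.338), and without mQ replicate 1, its highest library, its log2 fold change was -0.63 (adjusted p = 0.0288). AXL (0.06 ± 0.286) and NGFR (-0.07 ± 0.277) did not pass either, with 95% intervals of -0.495 to 0.624 and -0.609 to 0.477, and AXL replicate 2 was the highest of its group in both media. PMEL gave 0.29 ± 0.41.

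Of the lists, 0 of 11 pigment genes tested passed in mQ against pQ in the T arm. Of all genes tested there, 12.5% were higher and 12.4% lower. Among the lineage genes 5 rose and 5 fell of 18, with TFAP2C (0.88 ± 0.132) and the neuregulin receptor ERBB3 (0.57 ± 0.102) higher and SNAI2 (-1.25 ± 0.27), SOX5 (-0.82 ± 0.13) and EDNRB (-0.65 ± 0.192) lower. Among the dedifferentiation genes 2 rose and 5 fell of 22, where CCN2 rose by 0.79 ± 0.125, and SNAI1 (-1.59 ± 0.296), CAV1 (-0.94 ± 0.11) and TNC (-0.89 ± 0.167) fell. In the TCHX arm 2 were higher and 2 lower of 18 lineage genes, and 4 higher and 1 lower of 21 dedifferentiation genes. Over all genes tested in that arm, 3.82% were higher and 2.65% lower. CCN2 (1.58 ± 0.174) and CAV1 (-0.65 ± 0.16) passed there too, and SNAI1, TNC and SNAI2 did not (0.00, -0.08 and -0.15). That arm holds the doubted pQ library, without which 2553 genes passed instead of 810. The lists were not counted without it, so these counts show no difference between the arms. CAV1, which rose with siCTU2, was at 111, 122 and 120 CPM in mQ and 221, 261 and 218 CPM in pQ. Whether MITF or any list differed between both experiments was not tested, since the siRNA and medium libraries share no control.

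How long these mRNAs lasted was read from the T arm, with counts scaled to genes that held their level after triptolide, after the study's methods, and each level is given as a percent of the mean of the 0 h libraries of its condition and arm. The 4 lineage factors were lost fast in all 4 conditions, and AXL, NGFR, DCT and PMEL kept on average 54.2% or more of their 0 h level at 5 h. At 5 h SOX9 was at 5.82% ± 1.75 of its 0 h level with siCTU2, 5.59% ± 2.54 with siGL2 and 8.41% ± 2.26 in pQ (n = 3), and SOX10 at 10.9% ± 3.43, 10.3% ± 2.75 and 12.8% ± 1.19. TFAP2A was at 21.7%, 21.6% and 20.1% and MITF at 18.4%, 24.7% and 26.7% in the same order. AXL was at 89.7%, 97.3% and 81.5%, DCT at 55%, 54.2% and 60.5%, and NGFR at 65.7%, 81.8% and 71%. In mQ, 1 of 3 libraries stood apart at 5 h, the one with blood cell transcripts: SOX10 was there at 41.9%, against 6.2% and 12.5% in the other 2, and MITF at 59.1%, against 22.2% and 17.8%.

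**Figure D3:**
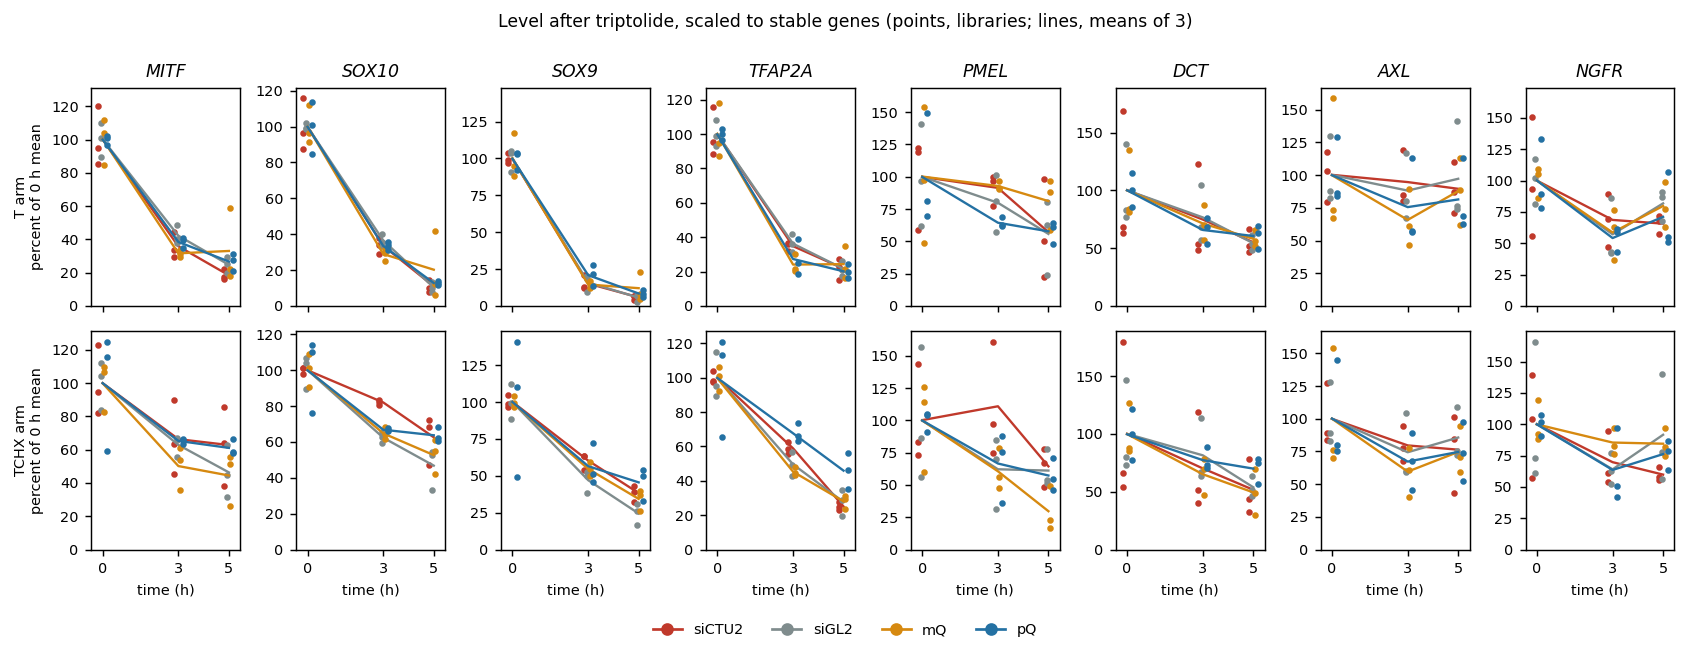
Level of the 8 tested members at 0, 3 and 5 h (x axis) as a percent of the mean 0 h level (y axis), with the T arm in the upper row and the TCHX arm in the lower row, points for libraries and lines for means of 3. In the T arm SOX9 and SOX10 ended between 5.59% and 20.2% on average, and AXL between 81.5% and 97.3%, and in the TCHX arm SOX10 ended between 46.8% and 63.7%.

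Over the mean of 3 h and 5 h against 0 h, the log2 change of SOX9 was -3.41 ± 0.183 with siCTU2, -3.41 ± 0.276 with siGL2, -2.92 ± 0.301 in mQ and -2.92 ± 0.274 in pQ. SOX10 changed by -2.38, -2.37, -2.04 and -2.27, TFAP2A by -1.86, -1.84, -2.04 and -2.09, and MITF by -1.960, -1.63, -1.63 and -1.64 in the same order, all past the threshold (adjusted p at most 0.000295, edgeR). The number of the 8 tested members that fell was 4, 4, 5 and 6, where 62.9%, 47.5%, 58.2% and 63.9% of all genes tested fell, and the median over all genes was -0.72, -0.60, -0.66 and -0.72. DCT passed in mQ (-0.64 ± 0.242, adjusted p = 0.0319) and in pQ (-0.67 ± 0.168, adjusted p = 0.00281), with values close to these in the other conditions (-0.64 in both) that did not pass. In mQ without the doubted library DCT was at -0.56 (adjusted p = 0.0581), and the 4 lineage factors were at -3.33 (SOX9), -2.56 (SOX10), -2.17 (TFAP2A) and -1.95 (MITF). PMEL passed in pQ (-0.72 ± 0.293, adjusted p = 0.0399), but not without the doubted library (-0.70, adjusted p = 0.0519), without any 1 replicate (-0.13 with an adjusted p of 0.77 without replicate 3) or under TMM (-0.03, adjusted p = 0.969). AXL gave -0.12 to -0.40 and NGFR -0.54 to -0.68, none past the threshold, and in pQ NGFR had an adjusted p of 0.05.

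The size of these changes depends on the scale. With scaling over all genes (TMM), the median change rose by 0.61 to 0.70 in the 4 conditions to between -0.02 and 0.02, and the share of called genes that were higher went from between 1.7% and 2.21% to between 25.3% and 35.1%. On that scale the 4 lineage factors still fell in all 4 conditions, and 4 members were called in each, whereas DCT was at 0.03 in mQ and 0.05 in pQ. Relative to the median of all genes, the lineage factors were lost more than most mRNAs under either scale, and DCT was close to the median. With scaling genes stable at both later times, the median moved the other way, by -0.25 to -0.58, and 6 or 7 members fell in each condition.

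Of the related lists in siGL2, 14 of 18 lineage genes and 10 of 22 dedifferentiation genes tested fell after triptolide, where 47.5% of all genes tested did. They were led by SNAI2 (-5.51 ± 0.449), TFAP2C (-3.08 ± 0.179), SNAI1 (-6.11 ± 0.47) and CCN1 (-4.95 ± 0.508). Of the pigment genes 5 of 11 fell, with PPARGC1A (-1.80 ± 0.336) and the melanocortin receptor MC1R (-0.93 ± 0.276). The list medians were -0.67, -0.67 and -0.41, beside -0.60 over all genes. In pQ, 13 of 18, 17 of 22 and 6 of 14 fell, where 63.9% of all genes tested did. The AXL and NGFR list had 3 of 6 there, among them SORT1 (-0.59 ± 0.164), a partner of NGFR, and TYRO3 (-0.52 ± 0.142), a relative of AXL.

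The TCHX arm asked how far blocking translation kept these mRNAs. In the main fits all 4 lineage factors were higher with cycloheximide in most conditions, and the pigment genes and receptors did not pass the test. At 5 h SOX10 was at 62.6% of its 0 h level in siCTU2, 46.8% in siGL2, 52.7% in mQ and 63.7% in pQ, and SOX9 at 38.3%, 24.5%, 34.3% and 45.6%. MITF was at 62.8%, 46.4%, 44.5% and 61.1%, and TFAP2A at 25%, 27.7%, 28% and 45.9%. The doubted library in the pQ 0 h mean was low (SOX9 at 49.1% of that mean, MITF at 59%), and without it the pQ values at 5 h were 56.9% for SOX10, 36.3% for SOX9, 50.7% for MITF and 39.1% for TFAP2A. With siCTU2 at 5 h, leaving out the doubted library gave 70.4%, 35.7%, 51.3% and 26% in the same order. For SOX10, each TCHX library at 5 h was above each T library of its condition, also with the doubted mQ library at 41.9% against a lowest TCHX value of 42.1%.

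The cycloheximide effect, the log2 difference of TCHX and T over 3 h and 5 h, was largest for SOX9 among the members, at 2.19 ± 0.16 with siCTU2, 1.78 ± 0.238 with siGL2, 1.84 ± 0.262 in mQ and 1.60 ± 0.237 in pQ. For SOX10 it was 1.84, 1.59, 1.37 and 1.48, for MITF 1.20, 0.70, 0.73 and 0.71, and for TFAP2A 0.41, 0.67, 0.71 and 0.72. The members past the threshold, all higher, numbered 4 with siCTU2, 4 with siGL2, 3 in mQ and 4 in pQ of 8 tested, where 20.9%, 12.1%, 5.02% and 12.1% of all genes tested were higher, around medians of 0.22, 0.05, 0.05 and 0.06. MITF did not pass in mQ (0.73 ± 0.251, adjusted p = 0.106), but did without the doubted library (1.12 ± 0.182, adjusted p = 1e-04). TFAP2A passed narrowly with siCTU2 (0.41 ± 0.131, adjusted p = 0.0322) and did not without the library labelled siCTU2 TCHX at 5 h, replicate 3 (0.36 ± 0.132, adjusted p = 0.0822, edgeR). Calls of MITF and TFAP2A depended on the fit. At 3 h alone MITF did not pass in siCTU2, siGL2 and pQ (adjusted p = 0.171, 0.282 and 0.33, edgeR). With the 0 h difference subtracted, TFAP2A did not pass in siCTU2, siGL2 and mQ (adjusted p = 0.227, 0.723 and 0.564, edgeR). SOX10 and SOX9 kept their calls under every alternative in siCTU2 and siGL2. In pQ SOX10 did too, but SOX9 did not pass at 3 h alone (adjusted p = 0.094, edgeR). In mQ SOX10 kept its call in 5 of 9 alternatives and SOX9 in 6 of 9, with adjusted p up to 0.628 and 0.512 (edgeR). PMEL, DCT, AXL and NGFR lay between -0.62 and 0.08 in all 4 conditions, and 0 of them passed. With TMM the median cycloheximide effect moved by -0.07 to -0.22, and the share of called genes that were higher went from between 95.7% and 99.2% to between 76.8% and 86.2%, while 3 or 4 members were called, all higher. With scaling genes stable at both later times, the pQ median was at -0.27, 34.3% of called genes were higher, and DCT was lower (-0.49, adjusted p = 0.0203). At 0 h, TCHX against T called 0 members in any condition, beside 0% of all genes tested, and 0 members had an unadjusted p under 0.05.

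**Figure D4:**
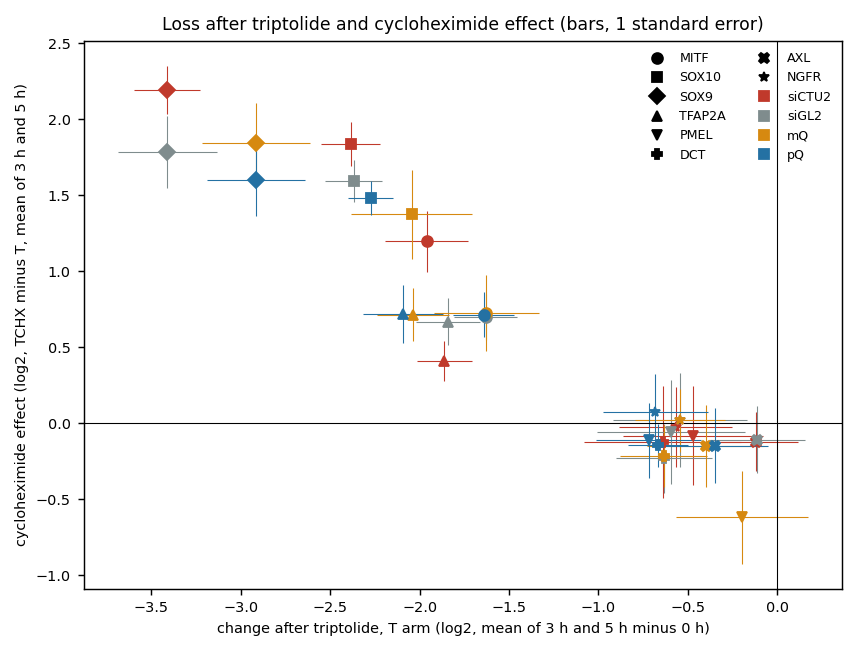
Log2 change after triptolide in the T arm (x axis) against the cycloheximide effect (y axis) for the 8 tested members in 4 conditions (colours), with bars of 1 standard error. The 4 lineage factors lay between -3.41 and -1.63 on the x axis and between 0.41 and 2.19 on the y axis, and the other 4 genes lay between -0.62 and 0.08 on the y axis.

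The change and the cycloheximide effect share the T arm libraries at 3 h and 5 h, and hence their errors. The lists held genes with larger effects. In siGL2, 6 of 18 lineage genes and 5 of 22 dedifferentiation genes tested were higher with cycloheximide and 0 were lower. Over all genes tested 12.1% were higher. Among the list genes that were higher were SNAI2 (3.03 ± 0.429), TFAP2C (2.30 ± 0.158), SNAI1 (3.91 ± 0.458) and JUN (3.64 ± 0.38), while 0 of 11 pigment genes passed. In pQ, where 12.1% of all genes tested were higher, 8 of 18, 6 of 22 and 1 of 14 passed, the last being PPARGC1A (0.76 ± 0.215). In siCTU2, where 20.9% were higher, 8 of 18, 7 of 22 and 1 of 13 passed, the last being MC1R (0.73 ± 0.161).

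Whether loss and its relief differed between the conditions was tested as a difference. For the change after triptolide, 0 members passed for siCTU2 minus siGL2 (0.105% of all 14266 genes tested did) and 0 for mQ minus pQ (0%), and for the cycloheximide effect 0 and 0 (0.379% and 0%). No member had an unadjusted p under 0.05 in these tests, in which 9 members of the siRNA experiment and 8 of the medium experiment were tested, TYR being the additional one. The differences for MITF were -0.33 ± 0.315 in the change after triptolide (95% interval -0.947 to 0.289) and 0.50 ± 0.258 in the cycloheximide effect (-0.009 to 1.003, unadjusted p = 0.064) for siCTU2 minus siGL2. The same difference was -0.02 ± 0.242 for SOX10 and close to 0 for SOX9 (95% interval -0.68 to 0.675). The intervals leave room for differences between these bounds, so a similar rate of loss was not shown. In the medium experiment, leaving out replicate 3, which holds both doubted libraries there, with the other libraries of that number, gave a difference for MITF of -0.58 in the change after triptolide (adjusted p = 0.00699) and of 0.66 in the cycloheximide effect (adjusted p = 0.00141), and of 0.78 for SOX9 in the latter (adjusted p = 0.0117). With the 2 doubted libraries alone left out, 0 members passed: MITF differed by -0.33 (adjusted p = 0.586) and 0.34 (adjusted p = 0.705), and SOX9 by 0.67 in the cycloheximide effect (adjusted p = 0.303).

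The study's own measure, the TDD index, is the level in TCHX minus that in T divided by the 0 h level, and so the share of the starting mRNA that cycloheximide kept. The mean index was 0.478 (siCTU2), 0.344 (siGL2), 0.378 (mQ) and 0.368 (pQ) for SOX10, 0.354, 0.239, 0.344 and 0.291 for SOX9, 0.317, 0.198, 0.176 and 0.226 for MITF, and 0.119, 0.157, 0.164 and 0.187 for TFAP2A. PMEL, DCT, AXL and NGFR lay between -0.316 and 0.0399. By the study's rule (linear model, unadjusted p at most 0.05), SOX10 and SOX9 had a higher index with siCTU2, 2 of 8 tested, where 8.15% of 12263 genes passed and 7.28% were higher. Averaged over 3 h and 5 h, the 3 replicates of SOX10 ran from 0.429 to 0.515 with siCTU2 and from 0.26 to 0.402 with siGL2, and those of SOX9 from 0.303 to 0.38 and from 0.229 to 0.251. The replicates did not overlap for either gene. The difference was 0.133 ± 0.0334 for SOX10 and 0.116 ± 0.0272 for SOX9, beside a median of 0.07 over all genes tested. An exact two-sided permutation test of the replicate means gave p = 0.1 for each, the smallest that 3 against 3 allows, beside p = 0.00535 and 0.0038 in the linear model (0.0962 for SOX10 with TMM scaling). Neither passed after Benjamini-Hochberg adjustment over all genes (0.473 and 0.424), so the higher index holds by the study's rule only. Without replicate 1 the p rose to 0.0591 for SOX10 and 0.0714 for SOX9, and without replicate 3, which holds the library with CTU2 RNA, the differences were 0.131 and 0.107. For mQ minus pQ, 4.78% of genes and 0 of 8 members passed, and the largest difference, PMEL at -0.242 ± 0.13, had a 95% interval of -0.498 to 0.014.

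**Figure D5:**
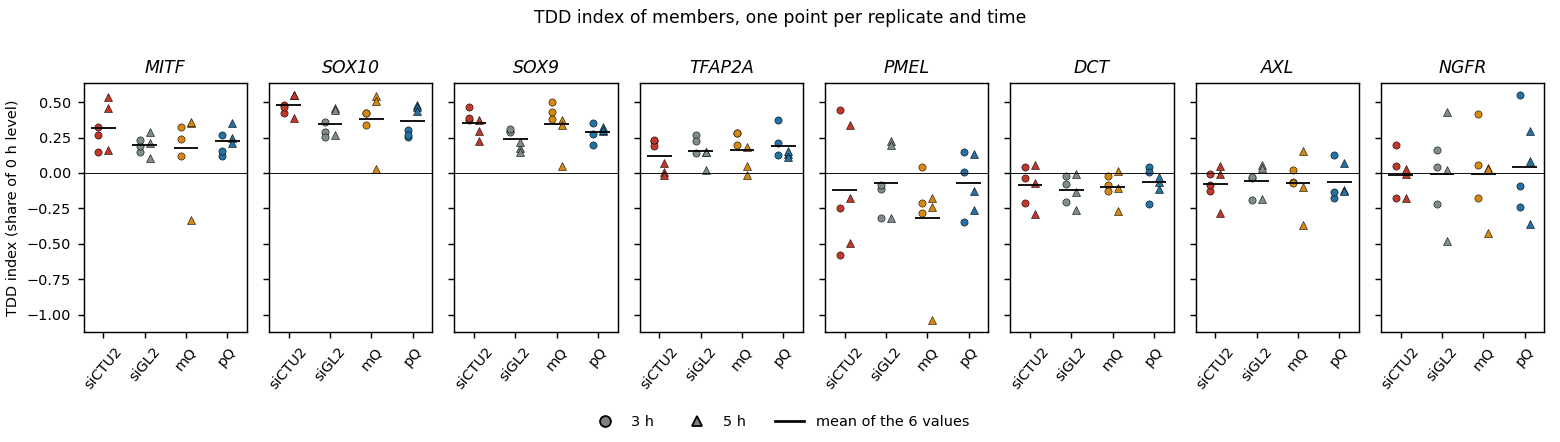
TDD index (y axis, share of the 0 h level) of the 8 tested members in the 4 conditions (x axis), with circles for 3 h, triangles for 5 h and bars for the mean of the 6 values. SOX10 had means of 0.344 to 0.478 and PMEL, DCT, AXL and NGFR means of -0.316 to 0.0399, and the lowest 5 h point of mQ for MITF uses the T arm library with blood cell transcripts.

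Across the 24 group means, each member's level on the log2(CPM + 1) scale was set beside those of 9779 genes, as a description in which time, arm and condition are shared by all points. The genes most like MITF were MRGBP (Pearson r = 0.940), CDC6 (0.940) and WT1 (0.937), those most like SOX10 were RTL6 (0.979), ARF6 (0.977) and TP53RK (0.971), and those most like SOX9 were METTL14 (0.981), DCP1A (0.980) and MRPL20-AS1 (0.976). TFAP2A was closest to RHOB, FRAT2 and ANKRD12 (0.942 each), DCT to ARHGAP1 (0.962), PMEL to ST6GALNAC3 (0.852), AXL to GPC1 (0.985) and NGFR to TMEM134 (0.951). Among the members themselves, SOX10 and SOX9 were the pair most alike (0.830), followed by SOX10 and TFAP2A (0.784) and by DCT and NGFR (0.693), while MITF and AXL ran opposite (-0.627). These values include the time after triptolide on a CPM scale. In the T arm of siCTU2, mean CPM at 0, 3 and 5 h was 59.2, 75.8 and 81 for AXL and 124, 61.3 and 35.4 for MITF. The part of the conditions in this r was not tested.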

How the data were processed

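QuantSeq reads of 72 libraries had been trimmed by the authors with fastp 0.20.1, mapped to GRCh38.p13 with HISAT2 2.2.1 and counted on exons with htseq-count of HTSeq 0.13.5; whether counting used strand is not given in the sources used here. The authors deposited unnormalised counts of reads for each gene, with no molecular identifiers stated, so limits set from a count of 0 cover counting error only. Groups and replicate numbers came from the sample titles. The 10 members, the gene lists and the tests were chosen with earlier results of these data known.

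Counts were analysed in R 4.3.3 with edgeR 4.0.16 (filterByExpr, quasi-likelihood F-test, Benjamini-Hochberg adjusted p under 0.05 over all genes tested). Standard errors were derived from the log2 fold change and F, and 95% intervals are ±1.96 of them. At 0 h each arm was fitted on its own 6 libraries with TMM scaling; CPM are counts over the library total. Time and cycloheximide fits used all libraries of a condition or experiment, scaled to genes stable after triptolide (197 used of 198 found for the siRNAs, 81 of 82 for the media), by the study's rule: CPM above 0.2 at 0 h, at least 1.1 times that at 3 h or 5 h, and a 0 h CPM above 0.1 times the later one. The TDD index was modelled on condition, time and replicate for genes whose normalised counts at 0 h averaged 10 or more. From each list, up to 3 genes each way with the largest change (2 for time and cycloheximide effects) were named, provided that the higher group averaged 50 counts or more. Likeness was Pearson's r. The scripts were tested on simulated counts. Alternatives were DESeq2 1.42.0, other scaling and filters, single times, the replicate number as a block, and leaving out libraries; each arm and 5 h alone were added after seeing the data.

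In the siRNA experiment at 0 h, deviations of same-numbered libraries correlated at 0.0602, 0.144 and 0.255 in the T arm. In the TCHX arm they correlated at 0.13, 0.222 and 0.19. Pairing was not established, and the main edgeR fits did not use the replicate number. No library was left out of a main test.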

Additional observations from a re-analysis of the deposited data

How the results depend on the processing

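Members past the threshold at 0 h for siCTU2 against siGL2 numbered 6 in each arm, within 1.5 times of that under every alternative run. For mQ against pQ the count of 1 in each arm became 2 (MITF and SOX10) with both arms together, with or without the doubted library. That fit holds no replicate term, so the arms of a replicate count as separate samples. Leaving out a library gave 1 to 2 in the T arm and 0 to 2 in the TCHX arm. After triptolide, 7 members passed in siGL2 (main 4) where genes had to be stable at both times, and 2 to 5 in mQ (main 5) without a replicate. For the cycloheximide effect, leaving out a replicate gave 2 to 4 in siCTU2, siGL2 and pQ (main 4) and 0 to 4 in mQ (main 3), 3 h alone gave 2 in siGL2 and 1 in mQ and pQ, and subtracting the 0 h difference gave 2 in siGL2 and 0 in mQ. For the TDD index, siCTU2 minus siGL2 gave 1 under TMM and 0 to 3 without a replicate (main 2), and mQ minus pQ gave 2 with each arm divided by its own 0 h library and 0 to 2 without a replicate (main 0). Without replicate 3, 1 member passed in the medium difference of change after triptolide and 2 in that of the cycloheximide effect; leaving out 1 replicate at a time, the MITF difference ran from -0.582 to 0.489 for the former and from -0.166 to 0.142 for the TDD index, with the signs turned without replicate 3. Under TMM over all genes the change after triptolide turned positive for GPNMB (0.296), TYRO3 (0.239) and SORT1 (0.208) in siCTU2, TYRO3 (0.243) in siGL2, DCT (0.033) and TYRO3 (0.084) in mQ, and DCT (0.047), SORT1 (0.096) and TYRO3 (0.184) in pQ; MC1R was at 0.09 in siGL2 in the TCHX arm. TMM sets the median near 0 by construction; the cause of the other shifts was not tested.

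With the replicate number as a block, SOX10 also passed in the siRNA comparison of the T arm (0.192, adjusted p = 0.0194), DCT fell after triptolide in siCTU2 (-0.547, adjusted p = 0.0152) and siGL2 (-0.597, adjusted p = 0.00617), and AXL (-0.386, adjusted p = 0.0136) and NGFR (-0.705, adjusted p = 0.036) fell in pQ. In the medium experiment same-numbered deviations correlated between -0.141 and 0.106 at 0 h. Between the groups of 1 condition, the median was 0.176 to 0.281 for the same number and -0.209 to -0.0786 for other numbers, but 3 to 14 of 45 same-number pairs in each condition were at or below 0.1, so pairing was not established and these calls rest on the block. Counts over all genes moved by over 1.5 times in most time and cycloheximide fits, from 8785 to between 3217 and 11642 (triptolide, siCTU2), 6435 to between 2941 and 10566 (siGL2), 8045 to between 237 and 11684 (mQ), 8806 to between 3197 and 10727 (pQ), 697 to between 0 and 3691 (cycloheximide, mQ), and at 0 h for mQ against pQ from 3071 to between 1476 and 4780 (T arm) and 810 to between 133 and 4780 (TCHX arm). Depth limits PMEL, NGFR, MLANA and TYR most, at 124, 110, 8 and 13 counts or fewer at 0 h.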

Other observations

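Levels are also given for the control groups of both experiments, which share neither a transfection nor a medium change. DCT was at 17.5 to 42.1 CPM in the 6 siGL2 libraries at 0 h and at 67.4 to 111 CPM in the 6 pQ libraries, and NGFR at 1.63 to 3.96 CPM against 4.94 to 7.82 CPM. Neither gene overlapped between these controls, and in the T arm SOX10 ran the other way, with 319, 315 and 347 CPM in siGL2 and 226, 251 and 299 CPM in pQ. MITF overlapped, at 279 to 377 against 206 to 370 CPM, and so did AXL, at 25.1 to 41.9 against 22.9 to 40.8 CPM. These values were not tested, since the experiment and the treatment cannot be told apart.

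AXL showed a replicate pattern: replicate 2 was the highest of the T arm at 0 h in siCTU2, siGL2, mQ and pQ, at 71.8, 38.5, 46.6 and 36.4 CPM. DCT had its highest T arm library in replicate 3 in siCTU2, siGL2 and pQ, at 83.1, 42.1 and 111 CPM, and in replicate 1 in mQ, at 109 CPM.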
